A study of Mus musculus with 45 samples.

Results

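The circadian clock genes examined here were 10 genes that were selected on earlier results of these data: Dbp, Hlf, Tef, Nr1d1, Nr1d2, Per1, Per2, Per3, Arntl and Cry1. All 10 were listed in each of the 3 gene tables of the series, which held 55450 genes for slice microglia, 47643 for adult microglia and 43411 for brain tissue. The series comprised 45 RNA sequencing libraries in 7 groups. Slice microglia were sorted from organotypic brain slices, that is, coronal brain slices of neonatal mice that had been cultured for 2 weeks on a membrane, and the slices had then been kept for 24 h in medium alone (n = 9), with the inflammatory cytokine TNF at 50 ng/mL (n = 11) or with the myeloid growth factor GM-CSF at 20 ng/mL (n = 9). Adult microglia were sorted as CD11b-positive cells with intermediate CD45 from female mice of 10 to 15 weeks, 24 h after injection of 1 mg/kg lipopolysaccharide (LPS, a component of bacterial cell walls, n = 4) or of phosphate-buffered saline (PBS, n = 4). Whole brain tissue was taken from mice of the same age 24 h after the same dose of LPS (n = 4) or without any injection (n = 4), so that the control of the brain tissue differed from that of the adult microglia. All mice were of the C57BL/6 strain, the titles of the adult microglia and brain libraries mark them as WT, and the labels name no engineered allele in any group. Each slice library came from 3 pooled slices by the series' design text, or from 2 to 3 slices treated separately by the study's methods. The hour of the day at which animals were killed or slices were harvested is not given in the sources used here.

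The clock of a mammalian cell is a feedback loop of transcription factors. ARNTL (also called BMAL1) pairs with CLOCK and switches on the Per and Cry genes through E-box elements, and the PER and CRY proteins then hold ARNTL and CLOCK back. The same pair also drives Nr1d1 and Nr1d2, which encode the REV-ERB repressors of Arntl, and the output activators Dbp, Hlf and Tef, which bind D-box elements. Because RNA of these genes rises and falls over the day, most strongly for Dbp and Nr1d1 in many tissues, a level at a single time point reads both the amount and the phase of the rhythm.

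Promoter sequences of the members called in most comparisons (Dbp, Tef and Nr1d2) are shown here, together with that of Per3, which was added after the matches were seen because it held D-box letters. They run from 250 bases before to 50 bases after the annotated start and come from RefSeq on GRCm38.p6, the same assembly as the mm10 build that the submitters' processing notes name. Of the 10 members, 9 had 12 such sequences, and Per2 had none. Capitals mark a match to the E-box (CACGTG), the D-box (TTATGTAA or TTACGTAA), the core of the REV-ERB and ROR element (TAGGTCA or TGGGTCA) or the cyclic AMP element (TGACGTCA), each searched on both strands.
Dbp: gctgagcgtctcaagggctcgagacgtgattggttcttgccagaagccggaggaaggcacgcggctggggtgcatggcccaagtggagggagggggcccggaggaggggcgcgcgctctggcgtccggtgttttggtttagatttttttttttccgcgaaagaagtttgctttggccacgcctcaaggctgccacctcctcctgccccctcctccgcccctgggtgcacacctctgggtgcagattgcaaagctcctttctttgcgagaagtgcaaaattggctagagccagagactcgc
Tef, upstream start: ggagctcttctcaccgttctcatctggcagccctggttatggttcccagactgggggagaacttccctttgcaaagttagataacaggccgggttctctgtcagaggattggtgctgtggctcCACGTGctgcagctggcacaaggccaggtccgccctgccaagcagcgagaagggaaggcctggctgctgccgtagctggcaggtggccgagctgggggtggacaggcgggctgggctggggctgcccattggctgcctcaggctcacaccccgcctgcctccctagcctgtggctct
Tef, downstream start: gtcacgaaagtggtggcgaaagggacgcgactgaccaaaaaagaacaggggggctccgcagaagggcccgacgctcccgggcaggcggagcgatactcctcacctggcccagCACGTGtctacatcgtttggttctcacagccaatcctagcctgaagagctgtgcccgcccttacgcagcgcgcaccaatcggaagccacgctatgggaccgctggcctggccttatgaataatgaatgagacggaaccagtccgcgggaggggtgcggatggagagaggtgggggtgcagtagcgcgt
Nr1d2: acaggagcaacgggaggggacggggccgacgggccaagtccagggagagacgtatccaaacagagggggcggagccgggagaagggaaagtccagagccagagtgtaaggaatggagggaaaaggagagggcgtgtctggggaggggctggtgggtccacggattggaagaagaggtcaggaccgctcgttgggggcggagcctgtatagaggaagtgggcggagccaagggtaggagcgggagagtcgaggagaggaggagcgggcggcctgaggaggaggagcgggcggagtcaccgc
Per3: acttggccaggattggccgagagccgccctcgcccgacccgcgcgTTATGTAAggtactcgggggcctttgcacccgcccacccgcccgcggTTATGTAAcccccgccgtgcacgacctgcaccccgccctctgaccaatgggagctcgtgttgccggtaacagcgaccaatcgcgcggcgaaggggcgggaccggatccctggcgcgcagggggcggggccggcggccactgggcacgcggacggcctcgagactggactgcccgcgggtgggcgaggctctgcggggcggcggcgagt
These windows lie at chr7:45704997-45705296 (plus strand) for Dbp, chr15:81802423-81802722 and chr15:81811164-81811463 (plus strand) for Tef, chr14:18239057-18239356 (minus strand) for Nr1d2 and chr4:151044616-151044915 (minus strand) for Per3. Both Tef windows held 1 E-box, at -127 and -138 from the start, and the Per3 window held 2 D-boxes, at -205 and -158. The windows of Dbp and Nr1d2 held no match to any of the 4 elements. Among the members not shown, 1 of the Per1 windows held an E-box at -166, Cry1 held an E-box at -60, Hlf held a cyclic AMP element at -9 and 1 of the Arntl windows held a REV-ERB and ROR core at 31. No matches overlapped. Of 32851 promoter windows of this length, 7.15% held the E-box, 1.06% the D-box, 6.45% the REV-ERB and ROR core and 1.79% the cyclic AMP element. A match is a description of letters and not of binding, and a window without one says nothing about the factor.

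The genes lie on GRCm38 at chr7:45705088-45710203 (Dbp, plus strand), chr11:90336536-90390895 (Hlf, minus), chr15:81802421-81826863 (Tef, plus), chr11:98767932-98775333 (Nr1d1, minus), chr14:18204054-18239127 (Nr1d2, minus), chr11:69095217-69109960 (Per1, plus), chr1:91415982-91459324 (Per2, minus), chr4:151003652-151044665 (Per3, minus), chr7:113207465-113314126 (Arntl, plus) and chr10:85131700-85185064 (Cry1, minus). Every value below is for the gene as a whole, from read counts in slice microglia and from expected counts (not always whole) in adult microglia and brain tissue.

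Total counts ran from 5973364 to 9165485 per slice library, from 11391564 to 14216005 per adult microglia library and from 8199863 to 10368578 per brain library, and levels are given as CPM, the counts divided by the library total after TMM scaling and set to a common size. Replicates differed from each other by more than sampling noise, and 0 pairs were identical. The adult microglia libraries came from separate mice and the slice libraries from separately treated slices by the study's methods, but the labels tie no slice library to an animal, and p-values measure the spread between these libraries. The summed level of 9 microglia markers was 57028 to 63171 CPM in PBS microglia and 304 to 339 CPM in untreated brain tissue, and that of 6 neuron markers was 0.861 to 1.80 CPM and 6052 to 6229 CPM in the same groups. In slice microglia in medium the microglia markers summed to 21917 to 30615 CPM and the neuron markers to 2.17 to 10.3 CPM.

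Among the comparisons with a control group, LPS in adult microglia had the most members called. Of the 10 members, all of which were tested, 8 were called lower and 0 higher, against 13.0% of 12987 genes called lower and 14.4% called higher. A call here required an adjusted p under 0.05 and a fold change over 1.5 in the quasi-likelihood test of edgeR. These members had been selected on this contrast, so their values are given as a description without p-values. The median log2 fold change of the members was -2.26, and that of all tested genes was 0.01. The groups did not overlap in any of the 8 genes, while Per1 and Arntl overlapped. The share of all genes free of overlap was not computed in any comparison.

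Dbp, Hlf and Tef, the output activators, were lower in every LPS library. The 4 PBS libraries held 9.69, 14.2, 11.8 and 10.5 CPM of Dbp, and the 4 LPS libraries held 0.656, 0.599, 0.767 and 0.662 CPM, from 7 to 10 counts each. Dbp was thus 16.9-fold lower (log2 fold change -4.08, SE 0.22). Hlf had the largest change of the members in this comparison. Levels of 11.7, 12.3, 10.6 and 9.23 CPM in PBS fell to 0.510, 0.342, 0.460 and 0.147 CPM with LPS, the latter from 2 to 7 counts (log2 fold change -4.87, SE 0.28). Tef, the most abundant of the 3, was at 121, 155, 121 and 123 CPM in PBS and at 18.9, 35.0, 19.8 and 16.2 CPM with LPS, a 5.81-fold difference (log2 fold change -2.54, SE 0.23). Replicate 2 was the highest library of Tef in both groups.

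The REV-ERB repressor genes fell as well. Nr1d1 was at 3.16, 4.81, 5.88 and 6.56 CPM in PBS and at 0.656, 0.428, 0.153 and 0.147 CPM with LPS (log2 fold change -3.85, SE 0.43), with 2 to 9 counts per LPS library. Nr1d2 was at 72.5, 93.5, 80.0 and 89.5 CPM in PBS and at 3.65, 18.3, 7.90 and 5.67 CPM with LPS (log2 fold change -3.26, SE 0.44). The LPS libraries spread widely among themselves in Nr1d2, yet the highest of them lay below the lowest PBS library. Nr1d1 shares 263 exonic bases, 8.55% of its exon length, with Thra, a thyroid hormone receptor gene on the opposite strand. Thra fell too, from 6.02 ± 1.37 (SD, n = 4) to 1.78 ± 0.364 CPM (log2 fold change -1.75, SE 0.25), and reads from the shared bases cannot be told apart where strand was not used in counting. Dbp shares 539 bases (18% of its exons) with Sphk2, a sphingosine kinase gene, which was at 61.2 ± 2.18 CPM in PBS and 58.6 ± 3.89 CPM with LPS.

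The negative limb split between its members. Per2 was at 8.69, 11.6, 7.17 and 7.21 CPM in PBS and at 2.19, 0.856, 2.23 and 3.39 CPM with LPS (log2 fold change -1.98, SE 0.32). Per3 was at 16.9, 23.8, 18.8 and 20.3 CPM and at 4.52, 6.68, 5.68 and 5.89 CPM (log2 fold change -1.81, SE 0.15), which gave it the smallest SE among the called members. Cry1 was at 17.0, 16.7, 9.75 and 10.7 CPM and at 4.89, 3.51, 7.06 and 6.48 CPM (log2 fold change -1.30, SE 0.25). Per1, which is also an immediate early gene in many cells, was not called: 4.74, 22.7, 9.18 and 10.6 CPM in PBS stood against 30.8, 11.8, 17.2 and 10.1 CPM with LPS (log2 fold change 0.57, SE 0.54). Its libraries spread widely in both groups, and a difference of this size was not detectable at that spread.

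Arntl, the activator of the loop, was at 16.9, 14.2, 18.1 and 16.4 CPM in PBS and at 15.2, 14.8, 15.0 and 17 CPM with LPS. Its log2 fold change was -0.08 (SE 0.11), with a 95% interval from -0.30 to 0.14, the narrowest among the members in this comparison. The groups interleaved, and a change of Arntl as large as that of Cry1 lay outside this interval.

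**Figure D1:**
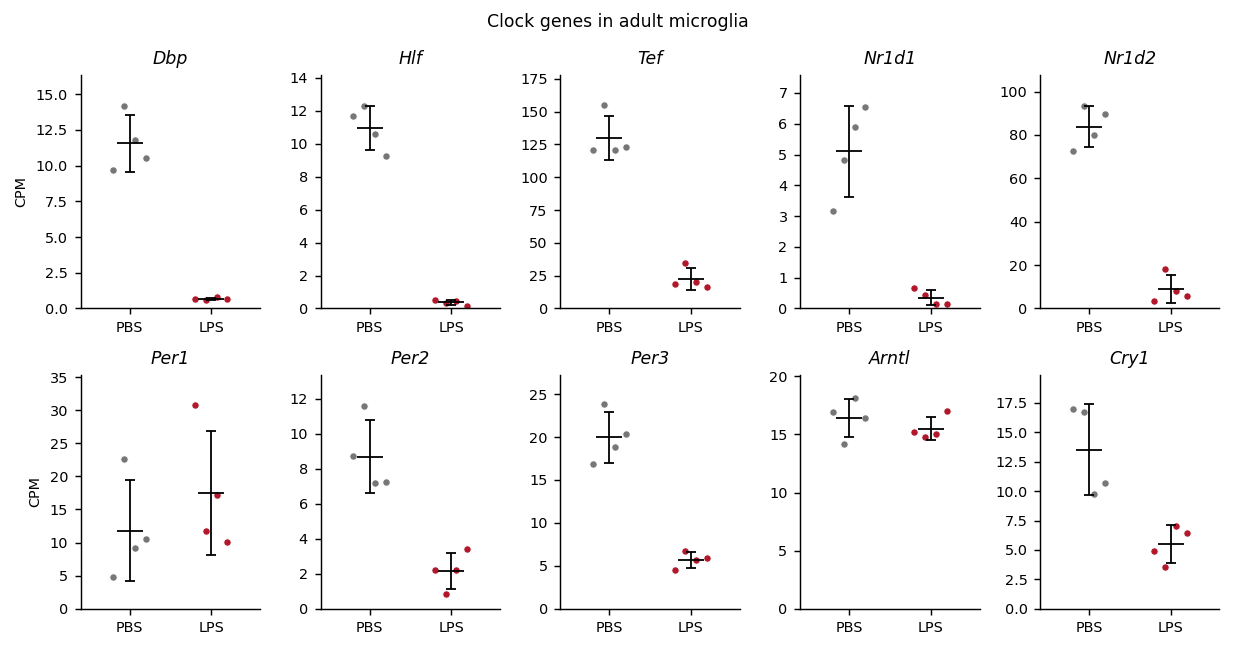
Level of each member in CPM (vertical axis, linear from 0) in the 4 PBS and 4 LPS libraries of adult microglia, 1 point per library, with the mean as a bar and the SD as whiskers. The LPS points of 8 genes lie below every PBS point, for instance Dbp at 0.599 to 0.767 against 9.69 to 14.2 CPM, whereas Per1 and Arntl overlap.

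Markers of other cells moved with the same contrast. The 5 markers of monocytes and neutrophils summed to 22.7 to 44.2 CPM in PBS and to 4.53 to 8.97 CPM with LPS, where Ly6g was at 0. The 4 endothelial markers summed to 28.9 to 36.3 CPM and 10.2 to 13.7 CPM, with Cldn5 at 0 in both groups. This fall lay in Pecam1 alone, with means of 32.7 CPM in PBS and 10.9 CPM with LPS. Flt1 (0.126 and 0.42 CPM) and Cdh5 (0.294 and 0.543 CPM) were low and had higher means with LPS. The 9 microglia markers summed to 44054 to 47810 CPM with LPS, lower than in PBS. The 4 oligodendrocyte markers summed to 74.8 to 87.3 CPM in PBS and 57.9 to 67.5 CPM with LPS, and the 4 border macrophage markers to 8.46 to 14.3 CPM and 12.8 to 20.8 CPM. Neuron markers stood at 0.856 to 1.69 CPM and the 5 astrocyte markers at 1.46 to 3.35 CPM with LPS, against 0.861 to 1.80 CPM and 1.44 to 2.17 CPM in PBS, so both lists were near 0 in both groups. The part of these lists in the result was not tested.

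In brain tissue the same dose of LPS at the same time gave a different picture. Of the 10 tested members 1 was called lower and 0 higher, against 0.550% of 15083 genes called lower and 2.63% called higher. This contrast, too, was among those the members were selected on. The median log2 fold change of the members was 0.13, and that of all genes was 0.00. In bulk tissue, fewer cells of a type and less RNA per cell cannot be told apart.

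Dbp was the gene called: the untreated brains held 82.7, 91.4, 86.3 and 92.7 CPM and the LPS brains 54.5, 47.7, 68.7 and 52.9 CPM. The groups did not overlap, and the difference was 1.58-fold (log2 fold change -0.66, SE 0.09), close above the limit of 1.5. Nr1d1 was also lower in every LPS brain, at 106, 113, 123 and 121 CPM against 146, 127, 138 and 133 CPM, by a fold of 1.18 that did not reach the limit (log2 fold change -0.23, SE 0.06). Hlf, in contrast, was higher in every LPS brain, at 274, 277, 308 and 296 CPM against 235, 250, 226 and 225 CPM (log2 fold change 0.30, SE 0.05). Thra, which shares bases with Nr1d1, was at 590 ± 13.3 CPM in untreated and 637 ± 13.3 CPM in LPS brains (SD, n = 4 each). Sphk2, which shares bases with Dbp, was at 28 ± 1.71 and 34.7 ± 2.12 CPM in the same order. Where strand was not used, reads from shared bases cannot be told apart, and their part in Nr1d1 and Dbp was not tested.

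Genes of the loop itself also lay higher with LPS without reaching the fold limit. Per2 was at 69.5, 65.3, 65.9 and 64.0 CPM with LPS and at 42.8, 45.8, 39.6 and 49.9 CPM without (log2 fold change 0.57, SE 0.07). Arntl was at 38.3, 39.7, 35.2 and 41.4 CPM and at 31.6, 23.7, 27 and 27.4 CPM (log2 fold change 0.50, SE 0.08). Cry1 was at 25.6, 27, 24.8 and 21.0 CPM and at 15.2, 16.7, 16.1 and 20.4 CPM (log2 fold change 0.53, SE 0.10). None of these 3 genes overlapped between the groups. By adjusted p alone, 6 members passed, against 10.2% of all genes. Tef (log2 fold change 0.03, SE 0.05), Nr1d2 (-0.07, SE 0.06), Per1 (0.23, SE 0.22) and Per3 (0.00, SE 0.19) overlapped between the groups. Tef was at 386 to 402 CPM in untreated and 379 to 445 CPM in LPS brains, and Nr1d2 at 138 to 146 CPM and 122 to 156 CPM. Per1 was at 80.1 to 155 CPM and 114 to 168 CPM, and Per3 at 67.4 to 73.9 CPM and 54.1 to 99.2 CPM. LPS replicate 3 was the highest LPS brain for Per3 (99.2 CPM), Dbp, Tef (445 CPM), Nr1d2, Hlf and Nr1d1.

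**Figure D2:**
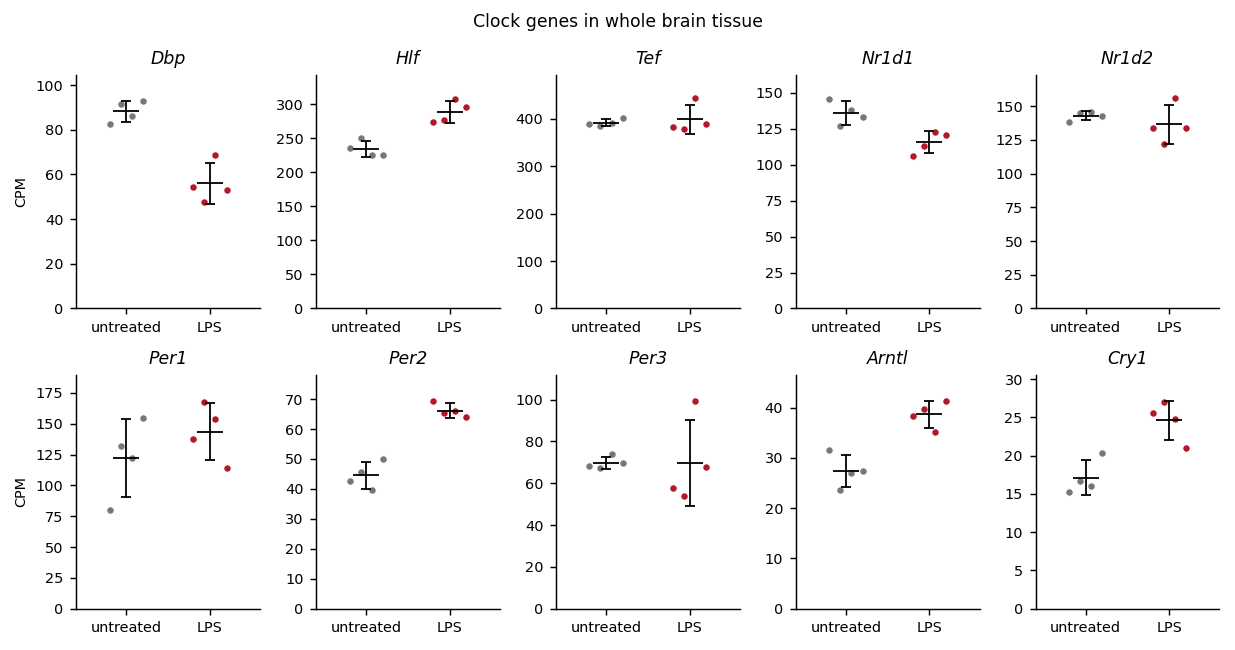
Level of each member in CPM (vertical axis, linear from 0) in the 4 untreated and 4 LPS brains, 1 point per library, with the mean as a bar and the SD as whiskers. Dbp and Nr1d1 lie lower and Hlf, Per2, Arntl and Cry1 higher in the LPS brains without overlap, and Per3 has 1 LPS brain at 99.2 CPM.

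Cell type markers differed in the brains as well. The 4 oligodendrocyte markers summed to 4826 to 5180 CPM in untreated and 3540 to 4094 CPM in LPS brains. The 9 microglia markers summed to 304 to 339 CPM and 297 to 482 CPM, the 4 endothelial markers to 126 to 144 CPM and 140 to 199 CPM, the 6 neuron markers to 6052 to 6229 CPM and 5617 to 6135 CPM, and the 5 astrocyte markers to 3397 to 3649 CPM and 3593 to 3874 CPM. Most of the astrocyte sum was Slc1a2, with means of 2995 CPM in untreated and 3005 CPM in LPS brains. Without overlap, Gfap was higher with LPS (412 against 160 CPM) and Aqp4 lower (110 against 150 CPM), while Aldh1l1 and Gja1 overlapped. The 4 monocyte and neutrophil markers listed there summed to 1.75 to 2.40 CPM and 4.35 to 7.97 CPM, and the 4 border macrophage markers to 2.30 to 3.73 CPM and 5.50 to 6.29 CPM, with Mrc1 at 0 counts in every brain. Their part in the members' values was not tested.

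The difference between the LPS effects in adult microglia and brain tissue was fitted as an interaction over the 16 libraries. It is made of the same samples as both contrasts above and is therefore given as a description. It passed the same thresholds for 9 of the 10 members, against 19.7% of 16676 genes. Each of the 9 was lower in microglia relative to brain tissue, from Hlf (-5.18 on the log2 scale, SE 0.21) to Arntl (-0.59, SE 0.14). The difference was -3.61 (SE 0.35) for Nr1d1, -3.43 (SE 0.23) for Dbp, -3.20 (SE 0.40) for Nr1d2, -2.57 (SE 0.23) for Tef, -2.55 (SE 0.27) for Per2, -1.83 (SE 0.27) for Cry1 and -1.82 (SE 0.23) for Per3. Arntl lay at the edge of the fold limit, and its call was lost without the expression filter (-0.56), with the stricter filter (-0.58) and with any 1 of 10 of the 16 libraries left out. Per1 did not pass (0.33, SE 0.58). The control animals, the library kits (SMART-Seq with Nextera XT for microglia, TruSeq for tissue) and the kinds of sample all differ between the tables, and they cannot be told apart in this difference.

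Slice microglia were treated in a dish, outside the animal. Of the 9 members tested for TNF against medium, 3 were called lower (Dbp, Tef and Nr1d2) and 1 higher (Per2), against 11.7% of 11313 genes called lower and 9.10% called higher. For GM-CSF against medium, 3 were called lower, again Dbp, Tef and Nr1d2, and 0 higher, against 5.96% and 4.84%. The comparisons share the 9 libraries in medium, so they are not independent of each other, and the members were selected on both. The median log2 fold change of the tested members was -0.38 with TNF and -0.19 with GM-CSF, and that of all genes was -0.03 and -0.04. With either cytokine, 0 members were free of overlap between treated and medium libraries. This count cannot be compared with that of adult microglia, because the slice groups held 9 or 11 libraries and the adult groups 4. Full separation is harder to reach with more libraries per group.

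Dbp ranged from 4.63 to 14.2 CPM in medium (median 8.53), from 0.705 to 5.10 CPM with TNF (median 3.18) and from 1.97 to 6.27 CPM with GM-CSF (median 3.41). With TNF, 10 of 11 libraries lay below every library in medium, and with GM-CSF 6 of 9 did. The log2 fold changes were -1.57 (SE 0.32) and -1.14 (SE 0.33). Sphk2, which shares bases with Dbp, was at 77.7 ± 7.82 CPM in medium (n = 9), 72.3 ± 7.90 CPM with TNF (n = 11) and 55.5 ± 11 CPM with GM-CSF (n = 9). Its log2 fold change with GM-CSF was -0.48 (SE 0.10), under the fold limit.

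Tef ranged from 25.2 to 74.2 CPM in medium (median 54.1), from 19.7 to 45.6 CPM with TNF (median 29.1) and from 27.5 to 43.2 CPM with GM-CSF (median 35.7). Its log2 fold changes were -0.76 (SE 0.16) and -0.60 (SE 0.17), the latter a fold of 1.52 at the edge of the limit. The GM-CSF call of Tef was lost with the title code as a term (-0.54), with the replicate block (-0.55), with total-count scaling (-0.49) and without the expression filter (-0.58). Its level in medium differed between the codes in the sample titles, where libraries of codes 1A and 1B held 66.9 ± 6.72 CPM (SD, n = 4) and those of codes 2A and 2B 43.2 ± 12.1 CPM (n = 5). Nr1d2 ranged from 11.1 to 38.5 CPM in medium (median 16.1), from 2.68 to 18.6 CPM with TNF (median 8.97) and from 3.67 to 15.0 CPM with GM-CSF (median 8.35). Its log2 fold changes were -1.07 (SE 0.30) and -1.08 (SE 0.31), and 8 of 11 TNF libraries lay below every library in medium.

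Per2 was the member that moved up. It ranged from 1.17 to 9.51 CPM in medium (median 5.68), from 6.15 to 18.9 CPM with TNF (median 12) and from 1.37 to 13.8 CPM with GM-CSF (median 9.34). The log2 fold change was 1.03 (SE 0.32) with TNF, where 6 of 11 libraries lay above every library in medium, and 0.56 (SE 0.33) with GM-CSF, which was not called. With LPS, Per2 had fallen in adult microglia (-1.98) and lain higher in brain tissue (0.57).

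The other members were not called in slices. With TNF the log2 fold change was -0.38 (SE 0.31) for Nr1d1, 0.24 (SE 0.18) for Per1, -0.46 (SE 0.38) for Per3, -0.14 (SE 0.22) for Arntl and 0.31 (SE 0.13) for Cry1. With GM-CSF it was -0.21 (SE 0.32), 0.19 (SE 0.19), -0.19 (SE 0.40), -0.15 (SE 0.23) and 0.09 (SE 0.14) in the same order. Nr1d1, which fell 14.4-fold in adult microglia, was at 7.24 ± 3.42 CPM in medium, 5.57 ± 2.26 CPM with TNF and 6.26 ± 3.11 CPM with GM-CSF. Thra was at 4.86 ± 2.21, 3.6 ± 2.05 and 4.87 ± 2.29 CPM in the same order. Arntl was at 9.36 ± 2.49, 8.51 ± 2.62 and 8.43 ± 2.54 CPM, the TNF mean including 1 library at 2.28 CPM.

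Hlf was too low to be tested in slice microglia. It had 0 counts in the 9 medium libraries together, which allows up to 3 counts of 67651747, or 0.0443 CPM. With TNF it had 4 counts in 3 of 11 libraries and with GM-CSF 4 counts in 2 of 9, and no fold change is given at these levels. These limits cover counting error only. In PBS microglia of adult mice the gene was at 11 ± 1.34 CPM (n = 4) and in untreated brain tissue at 234 ± 11.6 CPM (n = 4).

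**Figure D3:**
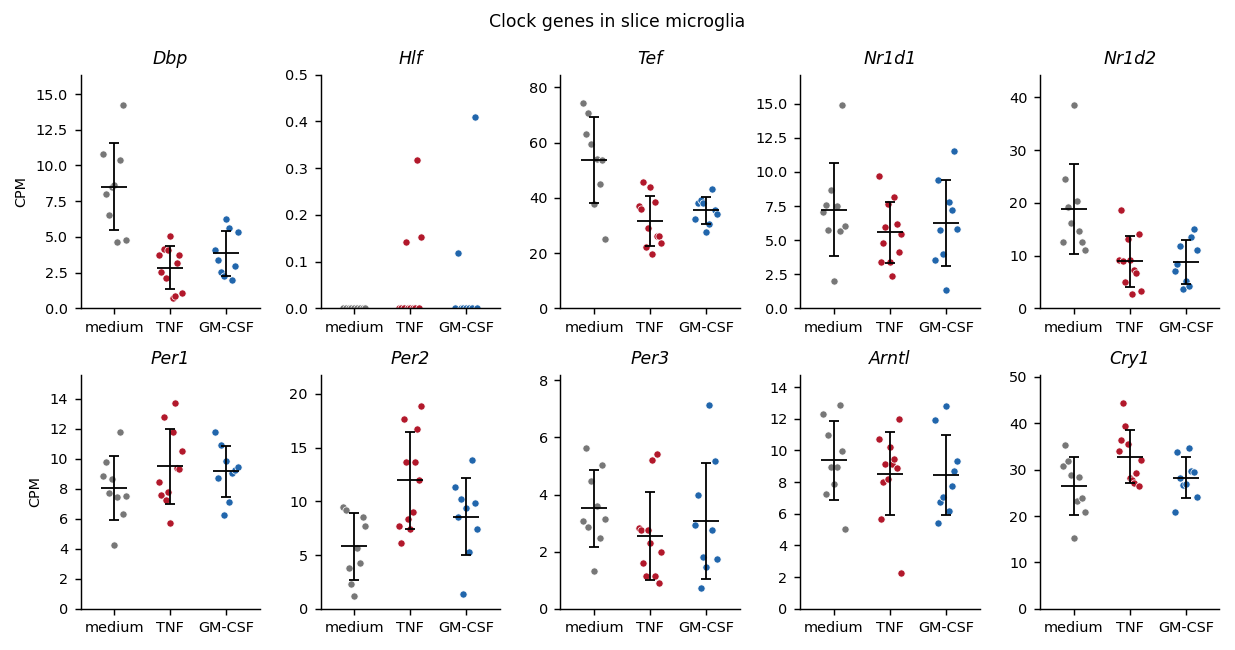
Level of each member in CPM (vertical axis, linear from 0) in slice microglia in medium (9 libraries), with TNF (11) and with GM-CSF (9), 1 point per library, with the mean as a bar and the SD as whiskers except for Hlf. Dbp, Tef and Nr1d2 lie lower with either cytokine and Per2 higher with TNF, all with some overlap, and Hlf is at 0 in every medium library.

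The slice titles carry a code and a running number that follows on across the treatments, and what either stands for is not stated. The title codes were used here in place of a batch, and the running numbers were not used in any fit. The slice libraries were collected over several independent experiments by the study's methods, which the labels do not tie to the codes. In codes 1A and 1B alone, the log2 fold change with TNF was -1.21 for Dbp, -0.90 for Tef, -0.75 for Nr1d2 and 0.71 for Per2, and in codes 2A and 2B alone it was -2.16, -0.68, -1.52 and 1.35. With GM-CSF it was -1.44 for Dbp, -0.85 for Tef and -1.21 for Nr1d2 in codes 1A and 1B, and -0.92, -0.32 and -0.97 in codes 2A and 2B. All directions were the same in both sets of codes. Of the members, 2 and 4 were called with TNF in the first and the second set, and 3 and 0 with GM-CSF, so that the GM-CSF calls were not obtained in codes 2A and 2B alone. Over all genes, 2273 of 11466 and 1868 of 11361 were called with TNF in the 2 sets. With GM-CSF the counts over all genes were 1216 and 785. Each set holds only part of the libraries, and the difference between the sets was not tested.

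Markers in slice microglia differed between treatments. The 9 microglia markers summed to 21917 to 30615 CPM in medium, 12896 to 16818 CPM with TNF and 16240 to 18027 CPM with GM-CSF, without overlap between medium and either cytokine. The 4 border macrophage markers summed to 89.7 to 214 CPM, 35.2 to 108 CPM and 134 to 300 CPM, and the 5 monocyte and neutrophil markers to 0.448 to 13.8 CPM, 2.28 to 104 CPM and 2.82 to 34.7 CPM, with Ly6g at 0 throughout. The neuron (1.00 to 11.3 CPM), astrocyte (5.28 to 60.6 CPM), oligodendrocyte (51.3 to 160 CPM) and endothelial lists (4.02 to 19.2 CPM) overlapped between the 3 groups. The part of these markers in the members' values was not tested.

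Compared directly, TNF and GM-CSF gave 0 called members of 9 tested, against 16.2% of 11313 genes called in either direction. The members were selected on contrasts that hold the same treated libraries, so these values too are a description. By edgeR 0 members had an unadjusted p under 0.05, and DESeq2 also called 0. The log2 differences, TNF minus GM-CSF, ran from -0.43 (Dbp, SE 0.32) to 0.47 (Per2, SE 0.31). Between them lay Per3 (-0.27, SE 0.38), Nr1d1 (-0.17, SE 0.31), Tef (-0.16, SE 0.16), Nr1d2 (0.01, SE 0.30), Arntl (0.01, SE 0.22), Per1 (0.05, SE 0.18) and Cry1 (0.21, SE 0.13). Their 95% intervals were wide, from -1.06 to 0.20 for Dbp and from -0.14 to 1.08 for Per2, so the missing calls do not show that the cytokines acted alike. The interval of Arntl ran from -0.42 to 0.44 and that of Tef from -0.48 to 0.15.

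**Figure D4:**
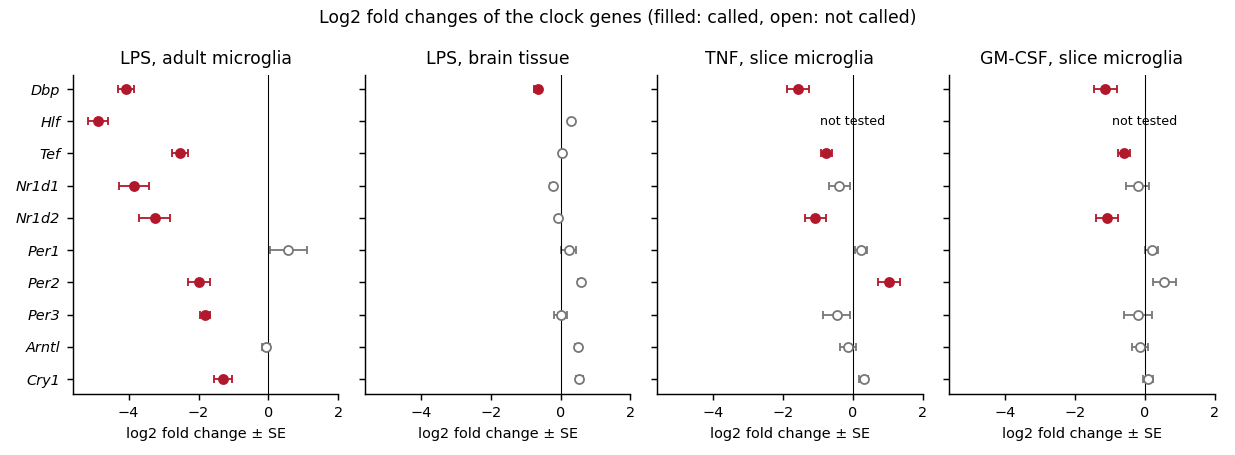
Log2 fold change (horizontal axis) of each member in the 4 comparisons with control, with the SE as whiskers, where filled points were called and open points were not. The change of Dbp is below 0 in every panel (-4.08, -0.66, -1.57 and -1.14), whereas Per2 is at -1.98 in adult microglia and at 1.03 with TNF in slices, and Arntl lies near 0 except in brain tissue (0.50).

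The other genes of the pathway were taken from a list of 19 further clock genes, chosen with earlier results known. In adult microglia 15 were tested, 2 were called higher and 4 lower, with a median log2 fold change of -0.34. The shares over all genes were 14.4% higher and 13.0% lower, so the count of higher genes was at the background. The lower genes included Rora, the activator that competes with REV-ERB (-2.96, SE 0.36, adjusted p = 4.65e-05), Cry2 (-0.86, SE 0.17, adjusted p = 0.00116) and the casein kinase gene Csnk1e (-0.81, SE 0.06, adjusted p = 1.98e-06). Nfil3, a repressor at D-boxes, rose by 0.59 (SE 0.16, adjusted p = 0.00720), as did Bhlhe40, a repressor at E-boxes, by 1.08 (SE 0.41, adjusted p = 0.0437) from a low level of 0.593 to 1.25 CPM. Clock, the partner of Arntl, was at 48.3 CPM in PBS and 50.2 CPM with LPS (log2 fold change 0.06, SE 0.10, adjusted p = 0.655).

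In brain tissue all 19 were tested and 0 were called, with a median of 0.08. By unadjusted p under 0.05 there were 7, by adjusted p 2, and DESeq2 called 0. The 3 with the smallest p were Bhlhe40 (log2 fold change 0.38, SE 0.05, adjusted p = 0.000203), Npas2, a relative of Clock (0.30, SE 0.07, adjusted p = 0.0154), and Rora (0.16, SE 0.06, adjusted p = 0.0845).

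In slice microglia 14 of the list were tested. With TNF, 3 were called lower and 1 higher, against 11.7% and 9.10% of all genes, and with GM-CSF 3 lower and 2 higher, against 5.96% and 4.84%. Rora fell with TNF (-1.07, SE 0.28, adjusted p = 0.00242) and with GM-CSF (-1.18, SE 0.30, adjusted p = 0.00282), and so did the ubiquitin protease gene Usp2 (-1.66, SE 0.11, adjusted p = 1.28e-14, and -1.11, SE 0.12, adjusted p = 2.93e-09). Usp2 fell from 112 CPM in medium to 35.5 CPM with TNF and 51.8 CPM with GM-CSF, with no overlap of either with medium. Bhlhe40 rose with TNF (0.85, SE 0.11, adjusted p = 3.26e-08) and with GM-CSF (1.13, SE 0.11, adjusted p = 6.39e-10), to 201 and 244 CPM from 111 CPM. Csnk1e was called with TNF (-0.80, SE 0.10, adjusted p = 3.66e-08), and Nfil3 (0.78, SE 0.10, adjusted p = 2.37e-07) and Bhlhe41 (-0.61, SE 0.08, adjusted p = 3.90e-07) with GM-CSF. Between the cytokines, 1 gene of the 14 was called, Ciart, a repressor of the loop, which was at 12.7 CPM with TNF and 6.91 CPM with GM-CSF (log2 difference 0.87, SE 0.25, adjusted p = 0.00702). The next by p were Usp2 (-0.54, SE 0.11, adjusted p = 0.000190) and Nfil3 (-0.35, SE 0.10, adjusted p = 0.00404), both under the fold limit. In the difference of the LPS effects, 4 of 19 were called, a share near the 19.7% of all genes, each lower in microglia relative to brain tissue, among them Rora (-3.15, SE 0.27, adjusted p = 9.00e-08), Cry2 (-1.0, SE 0.16, adjusted p = 7.74e-05) and Csnk1e (-0.92, SE 0.08, adjusted p = 1.04e-07).

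Genes downstream of the clock were called only higher with LPS in adult microglia, and in both directions with TNF in slices. For this list and the 2 that follow, calls stand beside these shares over all genes. In adult microglia 13.0% were called lower and 14.4% higher, with TNF 11.7% and 9.10%, and with GM-CSF 5.96% and 4.84%. In brain tissue the shares were 0.550% and 2.63%. Either way, 16.2% were called between the cytokines and 19.7% in the difference of the LPS effects. Of 6 output genes, 4 were called higher with LPS in adult microglia: the cell cycle kinase gene Wee1 (log2 fold change 2.89, SE 0.36, adjusted p = 4.54e-05), Klf10 (1.48, SE 0.11, adjusted p = 1.17e-06), Cdkn1a (0.99, SE 0.16, adjusted p = 0.000312) and Nampt, an enzyme of NAD synthesis (0.68, SE 0.21, adjusted p = 0.0256). With TNF in slices, 3 were called higher, Cdkn1a (1.31, SE 0.08, adjusted p = 2.53e-16), the heme synthesis gene Alas1 (1.26, SE 0.07, adjusted p = 3.09e-17) and Nampt (1.19, SE 0.10, adjusted p = 3.12e-12), and Wee1 was called lower (-0.78, SE 0.21, adjusted p = 0.00270). With GM-CSF 0 of 6 were called, 2 by unadjusted p under 0.05 and 0 by DESeq2, with Alas1 (0.33, SE 0.07, adjusted p = 0.000345), Cdkn1a (0.17, SE 0.08, adjusted p = 0.118) and Tspan4 (-0.07, SE 0.08, adjusted p = 0.539) having the smallest p. In brain tissue 0 of 6 were called, 4 by unadjusted p, with Nampt (0.17, SE 0.06, adjusted p = 0.0996), Alas1 (0.15, SE 0.06, adjusted p = 0.132) and Wee1 (0.25, SE 0.11, adjusted p = 0.177) having the smallest p. Between the cytokines, Cdkn1a (log2 difference 1.14, SE 0.08, adjusted p = 9.47e-15), Nampt (1.1, SE 0.10, adjusted p = 2.39e-11) and Alas1 (0.93, SE 0.07, adjusted p = 9.86e-14) were higher with TNF and Wee1 was lower (-0.91, SE 0.21, adjusted p = 0.000707). In the difference of the LPS effects, Wee1 (2.63, SE 0.33, adjusted p = 5.10e-06) and Klf10 (1.48, SE 0.27, adjusted p = 0.000496) were called higher in microglia relative to brain tissue, and the next was Nampt (0.50, SE 0.23, adjusted p = 0.114).

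Glucocorticoids and immediate early signals both reach the Per genes. Of 10 glucocorticoid-induced genes, 1 of 9 tested was called in adult microglia, a count near the 13.0% of all genes called lower. It was Sgk1, which fell (-1.12, SE 0.14, adjusted p = 9.79e-05). The next by p were Errfi1 (-0.39, SE 0.12, adjusted p = 0.0142) and Tsc22d3 (-0.87, SE 0.34, adjusted p = 0.0659). In brain tissue 0 of 10 were called and 3 had an unadjusted p under 0.05: Errfi1 (0.23, SE 0.08, adjusted p = 0.0678), Zbtb16 (0.44, SE 0.18, adjusted p = 0.189) and Fkbp5 (1.07, SE 0.43, adjusted p = 0.196). In slices, Tsc22d3 (-0.96, SE 0.11, adjusted p = 6.17e-09) and Dusp1 (-1.45, SE 0.35, adjusted p = 0.00126) fell with TNF, and the next was Sgk1 (-0.26, SE 0.08, adjusted p = 0.00692). With GM-CSF, Sgk1 (-0.80, SE 0.08, adjusted p = 1.78e-09) and Dusp1 (-1.10, SE 0.37, adjusted p = 0.0263) fell while Fkbp5 (1.13, SE 0.14, adjusted p = 1.04e-07) and Klf9 (1.27, SE 0.43, adjusted p = 0.0243) rose. Between the cytokines, Klf9 (-1.96, SE 0.41, adjusted p = 0.000260) and Fkbp5 (-1.48, SE 0.13, adjusted p = 3.27e-11) were lower and Errfi1 (0.59, SE 0.12, adjusted p = 0.000164) was higher with TNF. In the difference of the LPS effects, Sgk1 (-1.86, SE 0.37, adjusted p = 0.00154) and Errfi1 (-0.63, SE 0.15, adjusted p = 0.00214) were called lower, and the next was Tsc22d3 (-0.88, SE 0.38, adjusted p = 0.1).

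Of 9 immediate early genes, Junb (0.74, SE 0.12, adjusted p = 0.000371) and Ier2 (1.90, SE 0.35, adjusted p = 0.00294) rose and Egr2 (-1.66, SE 0.60, adjusted p = 0.0370) and Nr4a1 (-1.21, SE 0.40, adjusted p = 0.0230) fell in adult microglia. In slices with TNF, Junb rose (0.69, SE 0.06, adjusted p = 4.25e-11) and Fosb, Jun and Nr4a1 fell (-2.19, -0.69 and -1.13, adjusted p = 0.00790, 7.26e-05 and 0.0214). With GM-CSF, Fos (-1.14, SE 0.31, adjusted p = 0.00696) and Atf3 (-0.87, SE 0.11, adjusted p = 1.45e-07) fell, and Ier2 (0.53, SE 0.10, adjusted p = 5.57e-05) and Egr2 (0.56, SE 0.13, adjusted p = 0.00128) were under the fold limit. Between the cytokines, Junb (0.88, SE 0.06, adjusted p = 1.72e-13) and Atf3 (0.59, SE 0.11, adjusted p = 2.84e-05) were higher with TNF, and the next was Fos (0.58, SE 0.30, adjusted p = 0.150). In the difference of the LPS effects, Ier2 was called higher in microglia (2.01, SE 0.54, adjusted p = 0.0120), and the next were Egr2 (-2.27, SE 1.09, adjusted p = 0.140) and Nr4a1 (-1.37, SE 1.12, adjusted p = 0.416). None of the 8 immediate early genes tested in brain tissue was called, and 0 had an unadjusted p under 0.05 or were called by DESeq2. The smallest p belonged to Fosb (0.63, SE 0.33, adjusted p = 0.315), Jun (0.16, SE 0.09, adjusted p = 0.316) and Junb (0.41, SE 0.46, adjusted p = 0.675). DESeq2 also called 0 of the glucocorticoid-induced and 0 of the output genes in brain tissue.

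For an approximate comparison between genes, levels were divided by the length of all annotated exons of a gene, whether used or not. The SD is the spread between libraries and leaves out any error of this length. In PBS microglia, Tef (16.5 ± 2.11 CPM per kilobase of exon, n = 4) and Nr1d2 (15.5 ± 1.75) stood highest and within each other's spread, followed by Cry1 (4.05 ± 1.16) and Dbp (3.85 ± 0.655), also within their spread. Arntl, Per1, Per3, Nr1d1, Hlf and Per2 lay between 2.18 and 1.48 CPM per kilobase. With LPS the order changed: Per1 (3.10 ± 1.67), Tef (2.86 ± 1.08) and Arntl (2.06 ± 0.134) were at the top and Hlf (0.0547 ± 0.0242) at the bottom. In untreated brain tissue the level of Tef was 49.9 ± 0.896 CPM per kilobase, of Nr1d1 44.2 ± 2.62, of Hlf 35.0 ± 1.74 and of Dbp 29.5 ± 1.54, each apart from the next by more than their SD, and Arntl was lowest at 3.64 ± 0.428. In slice microglia in medium, Cry1 (7.93 ± 1.87, n = 9) and Tef (6.83 ± 2.00) were highest and overlapped in spread, and Per3 (0.366 ± 0.140) was the lowest member with counts. These orders hold within a table only, since the tables come from different kits and counting. Levels of Nr1d1 and Dbp may include reads of the bases shared with Thra and Sphk2, which was not tested.

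The members differed in how much they varied between libraries of the same group. In adult microglia the SD of log2 CPM within groups was 0.82 for Per1, above 97.4% of 12987 genes, and 0.12 for Arntl, above 29.4%, with a median of 0.18 over all genes. In brain tissue it was 0.33 for Per1 (above 87.6% of genes) and 0.28 for Per3 (82.3%), against 0.08 for Hlf and Tef and a median of 0.13. In slice microglia it ran from 0.28 (Cry1) to 0.81 (Per2), with a median of 0.35, and was 0.68 for Dbp, 0.72 for both REV-ERB genes and 0.75 for Per3. The mean log2 CPM in slices was 1.54 for Per3, 2.10 for Dbp and 3.37 for Nr1d2, below the median of all genes (4.66), and the part of these low levels in the SD was not tested.

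Whether the members moved together between libraries of the same group was examined in slices, since differences within a group are not part of the contrasts the members were selected on. Hlf was too low, so 8 members were set against Dbp in 3 groups, giving 24 relations. Of these, 1 passed at an adjusted p under 0.05. In the 9 GM-CSF libraries, Tef was lower where Dbp was higher, with Pearson's r -0.92 (exact permutation p = 0.000444, adjusted p = 0.0106) and Spearman's rho -0.90 (exact permutation p = 0.00203, adjusted p = 0.0487). Both genes fell with GM-CSF against medium, yet within the group the library with the least Dbp had the most Tef. Replicate 7 held 1.97 CPM of Dbp and 43.2 CPM of Tef, and replicate 5 held 6.27 and 27.5 CPM. Without the 2 libraries farthest from the median of Dbp, r was -0.85 (exact permutation, adjusted p = 0.233), so that the relation no longer passed, and with the means of the title codes subtracted it was -0.82. In medium the same relation had r 0.36 (rho 0.08, exact permutation p = 0.346 for r) and with TNF r 0.50 (rho 0.65, permutation p = 0.117 for r), and the difference between groups was not tested.

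**Figure D5:**
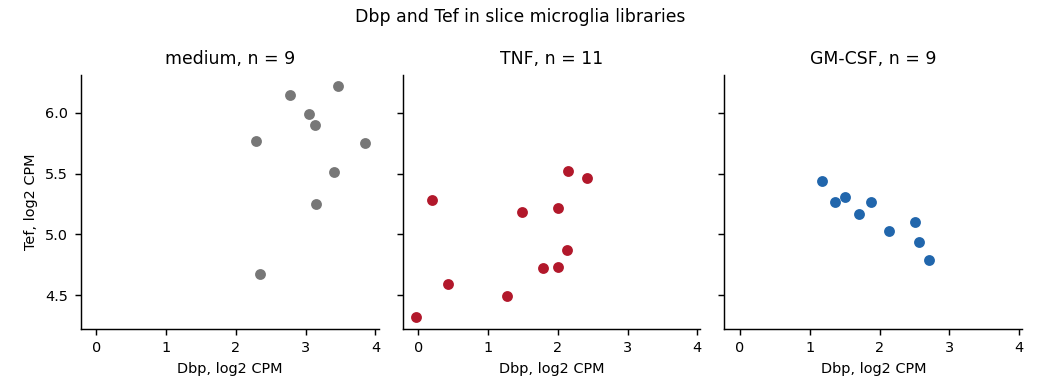
Log2 CPM of Tef (vertical axis) against log2 CPM of Dbp (horizontal axis) in slice microglia in medium, with TNF and with GM-CSF, 1 point per library. In the GM-CSF panel the 9 points descend from Dbp 1.17 and Tef 5.44 to Dbp 2.71 and Tef 4.79 (r -0.92), and the other panels show no such line (r 0.36 and 0.50).

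The other relations with Dbp did not pass. The closest were Nr1d2 with TNF (r 0.70, permutation p = 0.0173, adjusted p = 0.208, rho 0.61, r 0.63 without the 2 farthest libraries) and Per1 with TNF (r -0.59, permutation p = 0.0601, adjusted p = 0.481, rho -0.43, r -0.25 without the 2 farthest). Arntl had r 0.57 in medium, 0.38 with TNF and 0.42 with GM-CSF, none of which passed (adjusted p = 0.560, 0.755 and 0.755, permutation). Nr1d1 had r 0.26, 0.15 and -0.40 in the same order.

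Over the 29 slice libraries with group means subtracted, the genes whose pattern was most like that of Dbp among 11312 others were Cyp2u1 (Pearson r 0.69), Pak4 (0.66), Gm44116 (0.66), Crispld2 (0.63) and Nck2 (0.61). Of the members, Arntl came nearest to Dbp, at rank 165 (r 0.43), then Nr1d2 at rank 936 (r 0.27) and Tef at rank 1233 (r 0.24), and Per1 lay toward the far end at rank 10349 (r -0.26). The genes most like Arntl were Zik1 (0.71), Hps6 (0.71), Slc25a35 (0.70), Top1mt (0.69) and Olfr111 (0.65), and Dbp was at rank 238 (r 0.43). These correlations share libraries, depth and low counts and are a description without a test.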

How the data were processed

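RNA of sorted microglia and of brain tissue was sequenced. Slice microglia came with whole-number read counts that the authors deposited, for which the submitters' processing notes name STAR 2.7.0a, featureCounts and Subread 1.6.4. The values for adult microglia and brain were deposited in the form of expected counts (not always whole), and the tool behind them is not given in the sources used here. The build named is mm10. Whether strand was used in counting is not given in the sources used here. Expected counts were rounded, which changed totals by 0.00107% and 0.00113%, and 92 rows of the brain table that name no gene held 0 counts and were left out. Names, positions and exon lengths came from GENCODE M21. Per-sample columns without a sample numbered 0.

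The members, lists and tests were chosen with earlier results of these data known. Low genes were removed with filterByExpr (minimum count 10, minimum total 15), scaled by TMM and tested with the quasi-likelihood test of edgeR 4.0.16 in R 4.3.3. The 29 slice libraries were fitted together, adult microglia and brain tissue each alone, and the difference of the LPS effects over 16 libraries. P-values were adjusted by Benjamini-Hochberg over all genes, and a call needed an adjusted p under 0.05 and a fold change over 1.5. The SE is the size of the log2 fold change over the square root of its F statistic. Log2 CPM used a prior count of 2. Correlations used exact permutation with 9 libraries and 100000 permutations with 11, two-sided, adjusted over 24 relations. The fits were tested on simulated data. Every member was named in every comparison, as were list genes called or, under 3 calls, the 3 with the smallest p, except 1 called gene of the other clock genes that is not reported here. Alternatives were total-count scaling, DESeq2 1.42.0, other filters, no fold limit, title codes, single libraries left out and replicate numbers as a block. Dispersion between libraries (biological coefficient of variation) was 0.281 in slice microglia, 0.137 in adult microglia and 0.0672 in brain tissue. The libraries carry no molecular identifiers.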

Additional observations from a re-analysis of the deposited data

Results flagged for a closer look

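The LPS effect differed between adult microglia and brain tissue for 9 members by the interaction term, with the microglia minus brain difference on the log2 scale at -3.43 for Dbp, -5.18 for Hlf, -2.57 for Tef, -3.61 for Nr1d1, -3.20 for Nr1d2, -2.55 for Per2, -1.82 for Per3, -0.59 for Arntl and -1.83 for Cry1. The members had been selected on both contrasts, so this is no independent evidence.

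In 4 of 59 sets of member values from groups of 4 to 10 libraries, the highest library lay far from the rest, a distance that chance gives in about 1 set in 20. Tef was at 155 CPM in PBS microglia replicate 2 against 121 to 123 CPM in the other libraries, and at 445 CPM in LPS brain replicate 3 against 379 to 390 CPM. Nr1d2 was at 38.5 CPM in medium replicate 5 of the slices against 11.1 to 24.5 CPM. Hlf was at 0.409 CPM, from 3 counts, in GM-CSF replicate 8 against 0 to 0.118 CPM.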

How the results depend on the processing

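The called members kept their sign in 384 of 384 values under the alternatives and their call in 363. All alternatives reuse libraries on which the members were selected, and without the fold limit a call cannot be lost. These 2 counts therefore describe the dependence on processing and are no independent evidence. Tef with GM-CSF fell under the fold limit with total-count scaling (-0.49), no filter (-0.58), title code as a term (-0.54) and the replicate block (-0.55). Fits within title codes, on fewer libraries, gave other counts of members called: 2 in place of 4 with TNF in codes 1A and 1B alone, and 0 in place of 3 with GM-CSF in codes 2A and 2B alone. Over all genes, 2273 of 11466 and 785 of 11361 were called in these 2 fits. In brain tissue 1 member was called, but 2 with total-count scaling, 6 with no fold limit and 1 to 3 with 1 library left out; without LPS replicate 4 or untreated replicate 4, Per2 (0.59 and 0.63) and Cry1 (0.59 and 0.62) were called too. Other clock genes called without a fold limit were 8 in place of 4 with TNF, 12 in place of 6 in adult microglia and 2 in place of 0 in brain tissue, where 0 to 1 were called with 1 library left out (1 without LPS replicate 3 or untreated replicate 4). In the LPS difference, Arntl (-0.59) fell under the fold limit with no filter (-0.56), the stricter filter (-0.58) and 10 left-out libraries. The correlation of Tef with Dbp in GM-CSF (-0.92) was -0.85 without the 2 farthest libraries and then missed the adjusted threshold (exact permutation, adjusted p = 0.233, 7 libraries). With title code means subtracted, Arntl with Dbp under TNF passed too (r 0.82). Over all genes, calls without the fold limit were 4476 in place of 2353 with TNF, 2892 in place of 1222 with GM-CSF, 3486 in place of 1833 between the cytokines, 6703 in place of 3563 in adult microglia, 1533 in place of 479 in brain tissue and 5136 in place of 3289 in the LPS difference; brain tissue had 283 with the stricter filter and GM-CSF 785 in codes 2A and 2B alone. The stricter filter left out Dbp, Hlf and Per3 in slices and Nr1d1 in adult microglia, so it gives no value there. The cause of the other changes was not tested. Depth limits Dbp, Hlf and Nr1d1 in LPS microglia, at 10 counts or fewer per library.

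Replicate numbers were examined as a possible pairing. The correlation of same-numbered deviations ran from -0.08 to 0.18. Over 0.1 were 0 of 4 pairs in adult microglia and in brain tissue, 4 of 9 between TNF and medium and 2 of 9 in each other slice comparison. In the slice titles, running numbers follow each other across the treatments, and the replicate numbers do not keep to that order. A pairing by the running numbers was not tested, so whether slice libraries were paired is not settled here. With the replicate block, 4 members were called with TNF, 2 with GM-CSF, 8 and 1 with LPS in adult microglia and brain tissue, 0 between the cytokines and 9 in the LPS difference.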
